A study of Mus musculus with 9 samples.

Results

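Fibroblast growth factor (FGF) signalling was described in the embryonic mouse foregut from 10 genes: the ligand Fgf10, the receptors Fgfr1 to Fgfr4, and 5 genes that respond to the pathway, Spry1, Spry2, Spry4, Etv5 and Dusp6. All probe sets that the platform's annotation gives 1 of these symbols alone were taken, which were 20 of the 20380 probe sets with a single gene symbol. RNA came from the mid-foregut of wild type embryos, the gut tube between the pharyngeal arches and the liver from which the lung buds grow. There were 3 groups, staged by somites, the paired blocks of mesoderm added as the body axis extends: 16-20 somites (embryonic day 8.5), 21-25 somites (embryonic day 9.0) and 26-30 somites (embryonic day 9.5). Each group had 3 biological replicates, each a pool of 5 to 10 foreguts on its own Affymetrix array after 2 rounds of RNA amplification. Embryos carried no further allele and received no agent that the labels name, and neural tube and heart were dissected away.

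FGF ligands are secreted proteins that bind, with heparan sulfate, to receptor tyrosine kinases and signal through RAS and the kinase ERK. In the lung field Fgf10 is made by the mesenchyme and acts on the epithelial splice form of Fgfr2, and mouse embryos without either fail to form lungs. Sprouty proteins and the phosphatase Dusp6 are induced by the signal and damp it, and Etv5, an ETS transcription factor, is induced by it and switches on further targets.

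Some arrays stood apart from others of their stage. On 21-25 somites replicate 1 and 26-30 somites replicates 1 and 2, signals reached only 27479.8 to 32583.5 at the top, against 43791.6 to 61749.1 on the other 6. They are referred to below as narrow-range arrays, and they also had the 3 lowest signals of 18S ribosomal RNA, 274.5 to 776, against 1264 to 3122. Beta-actin, where a high 3'/5' signal ratio goes with short cDNA, had a ratio of 45.3 on 21-25 somites replicate 2 and of 20.9 to 36.8 elsewhere. Split by signal range, it ran from 20.9 to 22.2 on the 3 arrays above and from 22.4 to 45.3 on the other 6. For Gapdh the same split gave 16.0 to 21.0 against 21.6 to 40.9, with 40.9 on 26-30 somites replicate 3. Summed signals of 9 erythroid genes were highest on that array too, at 60219, against 18821 to 41546 elsewhere. Markers of neighbouring tissue were high on 16-20 somites replicate 2, where summed signals of 15 hepatic genes were 42428, against 2139 to 10204 on the other arrays, and those of 19 cardiac genes 21013, against 3269 to 8743. Of the markers that define the tissue, the foregut gene Foxa2 had signals of 459.9 to 882.5 and the epithelial gene Epcam 112.5 to 726.4, while Nkx2-1 (7.2 to 98.6), Shh (0.7 to 38.3) and the mesenchymal gene Foxf1 (12.7 to 65.0) lay below the filter on dim genes.

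None of the FGF members passed the test for a change between stages. In limma on log2(signal + 26.1), 7 of the 10 genes passed the filter on low signal (a mean log2 signal of at least 6.66), each represented by its brightest probe set, and 0 of the 7 had an adjusted p under 0.05 in any of the 3 comparisons of stages or in the F test over all stages. The background was also 0% in each of these: of 8675 genes tested, 0 passed. At an unadjusted p under 0.05 there were 0 members, against 967 genes (11.1%) between 26-30 and 16-20 somites, 960 (11.1%) between 21-25 and 16-20 somites, 353 (4.07%) between 26-30 and 21-25 somites and 846 (9.75%) in the F test. The 7 differences between 26-30 and 16-20 somites ran from -0.33 to 0.43 on the log2 scale, with a median of 0.11 and 6 of 7 above 0, beside a median of 0.01 and 50.8% above 0 over all tested genes. Between 21-25 and 16-20 somites 5 of 7 were above 0 (50.2% of all tested genes), and between 26-30 and 21-25 somites 3 of 7 (50.9%). In none of the 7 were the 3 arrays of one stage wholly above or below those of another, a separation found for 11.2% of tested genes (later stage higher) and 10.2% (later stage lower) between 26-30 and 16-20 somites, 6.94% and 7.3% between 21-25 and 16-20 somites, and 4.51% and 4.84% between 26-30 and 21-25 somites. A p that misses the threshold does not show that the stages were alike, and the intervals below give the differences that remain possible. Since whole foreguts were measured, fewer cells of a type and less RNA per cell cannot be told apart.

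**Figure D1:**
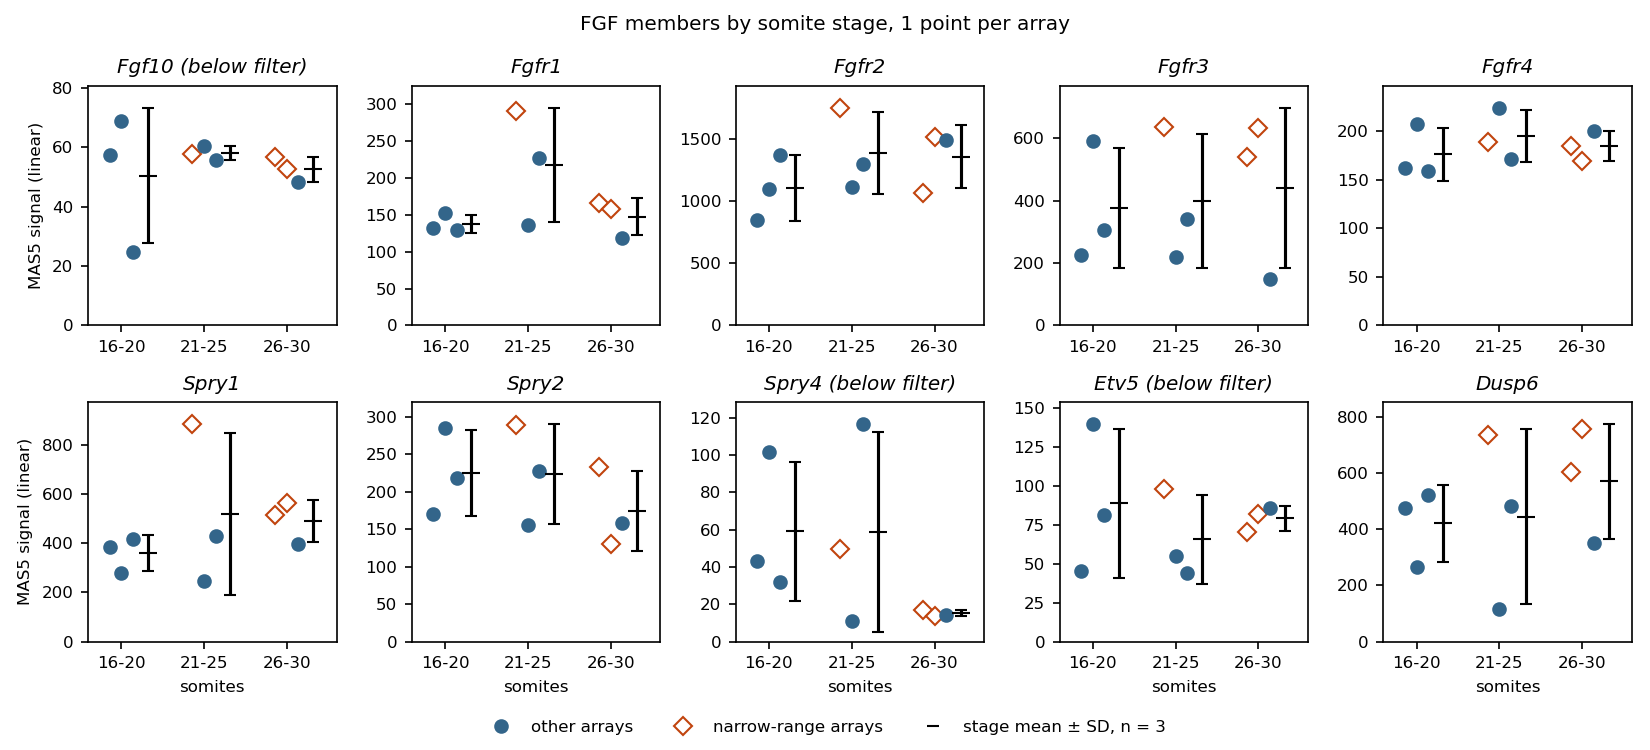
MAS5 signal on a linear scale (vertical axis) of each FGF member by somite stage (horizontal axis), with 1 point per array, open diamonds for the 3 narrow-range arrays and bars for the stage mean ± SD (n = 3). The stages overlap for every gene past the filter, and Dusp6 runs from 117.0 to 756.7 over the arrays.

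The ligand was dim at all stages. Fgf10, with a single probe set, had signals of 57.5, 68.9 and 24.9 at 16-20 somites, 57.8, 60.5 and 55.7 at 21-25 somites, and 56.6, 52.7 and 48.2 at 26-30 somites. All but 1 of these values lay between 48.2 and 68.9, and the low one was 16-20 somites replicate 3. Its mean log2 signal of 6.30 was below the filter level, so it was fitted with all probe sets unfiltered, where the difference between 26-30 and 16-20 somites was 0.09 ± 0.27 (SE) with a 95% interval of -0.51 to 0.68 (limma, adjusted p = 0.941 over 20380 probe sets). Without 16-20 somites replicate 3 that difference was -0.18. The deposited values carry no detection calls, so whether signals of this size stand above the array's background was not tested.

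Among the receptors, each taken by its brightest probe set, Fgfr2 had the largest difference between 26-30 and 16-20 somites. It did not pass the test. Less bright probe sets of Fgfr4 (1418596_at, 0.64) and Fgfr1 (1425911_a_at, -0.33) differed more, and did not pass either. Fgfr2, whose epithelial form binds Fgf10, had signals of 848.8, 1098.9 and 1373.4 at 16-20 somites, 1753.0, 1115.3 and 1298.8 at 21-25 somites, and 1064.9, 1521.3 and 1491.9 at 26-30 somites in its probe set 1433489_s_at. The means were 1107 ± 262, 1389 ± 328 and 1359 ± 255 (SD, n = 3 each), and the stages overlapped. The difference between 26-30 and 16-20 somites was 0.30 ± 0.26, with a 95% interval of -0.27 to 0.86 and an adjusted p of 0.673 in limma. It was 0.125 without 16-20 somites replicate 1, 0.46 without replicate 3 of that stage or without 26-30 somites replicate 1, and 0.048 with array weights. A second Fgfr2 probe set, 1420847_a_at, read 129.8 to 196.9 over the 9 arrays and differed by -0.07 ± 0.26. An s suffix marks a probe set shared by several transcripts and an a suffix one that matches alternative transcripts of a gene. Neither is annotated in the sources used here to the epithelial or the mesenchymal splice form, so the forms were not measured apart.

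Fgfr1, the receptor typical of mesenchyme, had its highest values at 21-25 somites. Its signals were 132.3, 151.8 and 128.8 at 16-20 somites, 289.6, 135.3 and 226.0 at 21-25 somites, and 166.1, 158.0 and 118.2 at 26-30 somites. At 21-25 somites 2 of 3 arrays lay above every array of the other stages and the third, replicate 2, lay among them. The difference between 21-25 and 16-20 somites, 0.52 ± 0.27 with a 95% interval of -0.07 to 1.11, had the smallest p among the 7 members past the filter, an unadjusted 0.0789 and an adjusted 0.496 in limma. Between 26-30 and 21-25 somites the difference was -0.44 ± 0.27 (adjusted p = 0.998), and between 26-30 and 16-20 somites 0.08 ± 0.27 (adjusted p = 0.932). Without 21-25 somites replicate 1, a narrow-range array with the highest Fgfr1 signal of all, the first of these was 0.30, and without replicate 2 it was 0.79 with an adjusted p of 0.251. The other Fgfr1 probe set, 1425911_a_at, was below the filter level with 35.7 to 77.2, and its difference between 21-25 and 16-20 somites was 0.03.

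Fgfr3 varied among pools of the same stage more than nearly all other genes. It had signals of 227.3, 593.0 and 306.2 at 16-20 somites, 636.8, 218.7 and 342.4 at 21-25 somites, and 541.2, 633.6 and 149.0 at 26-30 somites. Each stage held low and high arrays, and the highest signal was 4.27 times the lowest. The spread within stages was an SD of 0.83 on the log2 scale, larger than that of 98.2% of tested genes, whose median was 0.33. The 4 highest values came from the 3 narrow-range arrays and from replicate 2 of 16-20 somites, the array with high hepatic and cardiac markers. The stage difference between 26-30 and 16-20 somites was 0.11 ± 0.51, with a 95% interval of -1.0 to 1.22 (limma, adjusted p = 0.947). Without the 3 narrow-range arrays, so that 26-30 somites rested on a single array whose spread was taken from the other stages, it was -1.09 (adjusted p = 0.999). Its second probe set, below the filter level, read 10.6 to 98.9, and its difference between 21-25 and 16-20 somites was -0.87 ± 0.45.

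Fgfr4 rested on 5 probe sets, of which 3 were above 0 and 2 below between 26-30 and 16-20 somites. The brightest, 1427846_x_at, read 161.7, 207.8 and 159.3 at 16-20 somites, 188.8, 224.1 and 171.7 at 21-25 somites, and 184.4, 169.6 and 200 at 26-30 somites. Its within-stage SD of 0.16 (log2) was larger than that of 5.2% of tested genes, and the difference between 26-30 and 16-20 somites was 0.06 ± 0.22 (limma, adjusted p = 0.926). An x suffix marks a probe set that can bind transcripts of other genes, so this signal may not be that of Fgfr4 alone. Of the 2 probe sets with a plain suffix, 1418596_at read 62.5, 151.2 and 15.0 at 16-20 somites, 151.7, 51.9 and 82.8 at 21-25 somites, and 113.8, 129.9 and 86.9 at 26-30 somites. These values spread 10.1-fold, and 16-20 somites alone held both 15.0 and 151.2. Its difference was 0.64 ± 0.49 between 26-30 and 16-20 somites (limma over all probe sets, adjusted p = 0.695). The other plain one, 1427845_at, was dim at 5.1 to 83.1 and had the opposite sign, -0.25 ± 0.40 (adjusted p = 0.874). Of the rest, 1427776_a_at had arrays of 26-30 somites (9.9 to 18.4) wholly above those of 21-25 somites (1.3 to 5.7), as had 4.27% of all probe sets in that direction, at an adjusted p of 1.00.

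**Figure D2:**
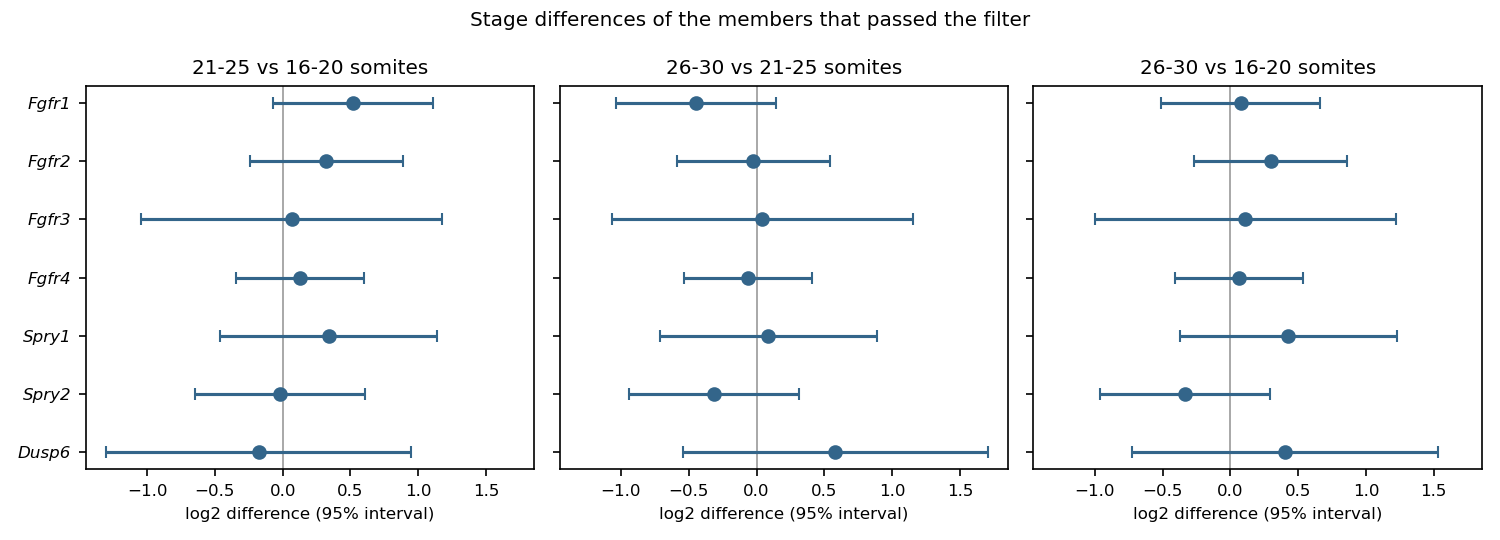
Log2 differences between stages (horizontal axis) for the 7 FGF members past the filter (rows), 1 panel per comparison, with points for limma estimates and bars for 95% intervals. All 21 intervals include 0, and those of Fgfr3 and Dusp6 are the widest.

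The feedback genes Spry1 and Dusp6, each with 1 probe set, shared most of their order over the arrays. Spry1, a sprouty inhibitor of receptor tyrosine kinase signalling, had signals of 386.7, 277.9 and 417.4 at 16-20 somites, 887.1, 246.0 and 428.7 at 21-25 somites, and 515.3, 564.6 and 397.7 at 26-30 somites. Dusp6, a phosphatase that removes phosphate from ERK, had 476.2, 265.5 and 522.0 at 16-20 somites, 735.3, 117.0 and 483.4 at 21-25 somites, and 603.1, 756.7 and 350.5 at 26-30 somites. For both genes the 3 narrow-range arrays held the 3 highest values, 21-25 somites replicate 2 the lowest and 16-20 somites replicate 2 the next lowest. The 3 narrow-range arrays lay above the other 6 for 2 of the 7 members past the filter, and for 9.65% of all tested genes. They lay below the other 6 for 0 of the 7 and for 7.04% of all tested genes. High values on these arrays were thus not particular to Spry1 and Dusp6. The epithelial gene Epcam and the heparan sulfate genes Sulf2 and Ext1 also had their 3 highest values there. Each of these 3 was also lowest on 21-25 somites replicate 2. Sox2, Gpc1, Fgf13, Sos2 and Phlda1 had their 3 highest values on the narrow-range arrays too, but were lowest on an array of 16-20 somites.

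By stage, Spry1 averaged 361 ± 73.3, 521 ± 330 and 492.5 ± 85.7, and Dusp6 421 ± 137, 445 ± 311 and 570.1 ± 205 (SD, n = 3 each). The difference between 26-30 and 16-20 somites was 0.43 ± 0.37 for Spry1, with a 95% interval of -0.37 to 1.23 (limma, adjusted p = 0.670). For Dusp6 it was 0.40 ± 0.52, with a 95% interval of -0.72 to 1.53 (adjusted p = 0.788). Leaving out single arrays gave 0.26 to 0.57 for Spry1 and 0.12 to 0.70 for Dusp6, with the lowest value of both genes when 16-20 somites replicate 2 was dropped and the highest when 26-30 somites replicate 3 was. Dusp6 also gave 0.17 when 26-30 somites replicate 2 was dropped. On the 6 arrays outside the narrow-range set, 26-30 somites rested on replicate 3 alone. The differences there were 0.15 for Spry1 and -0.20 for Dusp6. Once each array's 99th percentile of signal entered the fit of all arrays, they were 0.02 and -0.16. Spry1 spread by an SD of 0.55 and Dusp6 by 0.84 (log2) within stages, more than 87.5% and 98.4% of tested genes. Other measures also differed on these arrays. Those highest for both genes, the 3 of narrow range, had actin and Gapdh ratios below every other array. The array lowest for both, 21-25 somites replicate 2, had the highest actin ratio and low Epcam (112.5), Cdh1 (79.3) and Tbx5 (27.9). Its Sox2 signal (517.0) and its summed signal of 14 foregut and lung endoderm markers (11178) lay inside the ranges of the other arrays. The array highest for Spry1, 21-25 somites replicate 1, had the highest summed signal of 20 mesenchyme markers (26788, against 16199 to 24231 elsewhere). It was also highest for 12 endothelial markers (3850, against 1767 to 2751), for neural and neural crest markers (2944) and for somite markers (1069). Its median signal over all probe sets was the highest too. The part of these measures in the result was not tested.

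**Figure D3:**
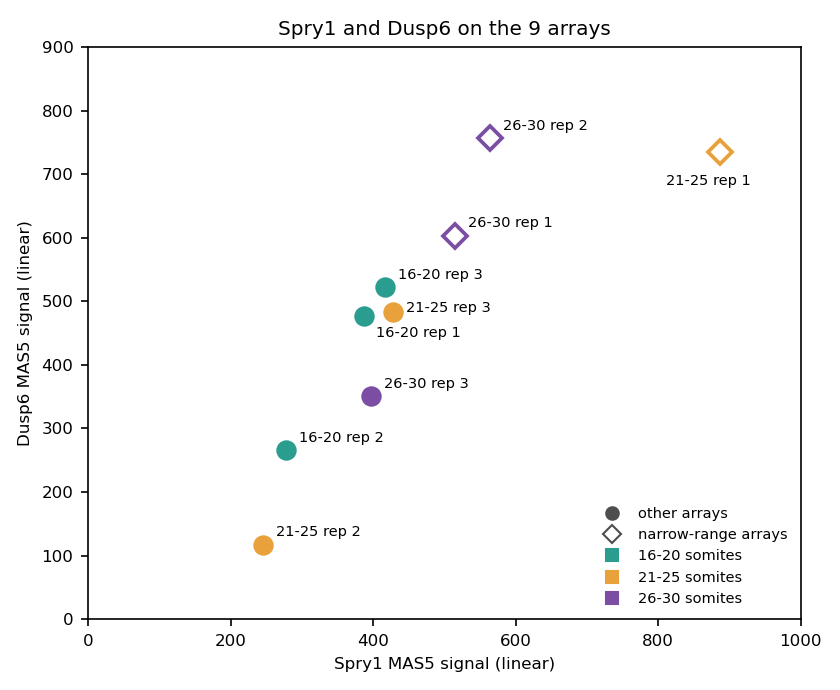
Dusp6 signal (vertical axis) against Spry1 signal (horizontal axis), both linear MAS5 values, with 1 point per array, colour for stage and open diamonds for the narrow-range arrays. The 3 diamonds hold the 3 highest values of both genes, and 21-25 somites replicate 2 the lowest.

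The 250 bases upstream of the annotated starts of Spry1 and Dusp6 are shown, from RefSeq on GRCm38.p6, in gene orientation and 5′ to 3′. Whether these sequences bear on the order of arrays that the 2 genes share was not tested. Capitals mark matches to 2 ETS motifs on either strand, CCGGAA and the PEA3 site AGGAAG, which cannot both match at 1 GGAA core. The Spry1 window is chr3:37639697-37639946 and the Dusp6 window chr10:99262981-99263230, both on the plus strand.
Spry1: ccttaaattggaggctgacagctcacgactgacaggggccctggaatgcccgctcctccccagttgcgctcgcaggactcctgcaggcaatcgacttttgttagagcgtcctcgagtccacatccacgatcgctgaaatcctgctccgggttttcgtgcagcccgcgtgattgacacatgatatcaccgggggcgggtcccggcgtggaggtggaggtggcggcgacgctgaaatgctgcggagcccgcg
Dusp6: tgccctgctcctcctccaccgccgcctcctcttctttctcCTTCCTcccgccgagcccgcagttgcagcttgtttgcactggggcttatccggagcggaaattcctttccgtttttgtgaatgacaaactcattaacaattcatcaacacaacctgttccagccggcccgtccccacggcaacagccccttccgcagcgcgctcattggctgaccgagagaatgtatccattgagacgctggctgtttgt
Dusp6 had 1 match, to AGGAAG on the opposite strand (CTTCCT), starting 210 bases before the gene's start, and Spry1 had 0. Of the 8 members whose windows were read, 3 genes held AGGAAG (Fgfr2, Fgfr4 and Dusp6) and 1 held CCGGAA (Fgfr4). Of all 32851 windows, 29.5% and 12.0% did. For members, windows on 1 chromosome were not read, a limit that was not applied to the background. No window was read for Fgfr1 or Spry4.

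The other sprouty genes had differences of both signs. Spry2, a further inhibitor of the same family, had signals of 170.5, 284.3 and 218.3 at 16-20 somites, 288.5, 154.8 and 226.8 at 21-25 somites, and 233.0, 130.1 and 158.1 at 26-30 somites. Its difference between 26-30 and 16-20 somites was -0.33 ± 0.29, with a 95% interval of -0.96 to 0.29 (limma, adjusted p = 0.671), the only negative one among the 7. Its other probe set, 1421656_at, gave 0.05 ± 0.27, with its highest value, 219.5, on 21-25 somites replicate 1. Spry4 lay below the filter level. Its brighter probe set, 1422021_at, read 43.3, 101.6 and 32 at 16-20 somites, 49.4, 10.8 and 116.6 at 21-25 somites, and 16.9, 13.9 and 14.5 at 26-30 somites. The 3 latest arrays were wholly below the 3 earliest, as they were for 9.14% of all probe sets, and the difference was -0.96 ± 0.45 (limma over 20380 probe sets, adjusted p = 0.544). The other Spry4 probe set, at 6.7 to 40.6, gave 0.09 ± 0.24.

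Etv5 was the member nearest to the filter, with a mean log2 signal of 6.65 against the level of 6.66, where the dimmest member that passed, Fgfr1, had 7.55. Its probe set 1420998_at read 45.0, 139.7 and 81.5 at 16-20 somites, 98.0, 54.8 and 44.3 at 21-25 somites, and 70.2, 81.9 and 85.4 at 26-30 somites. The stages overlapped, and the difference between 26-30 and 16-20 somites was -0.04 ± 0.35 (limma over all probe sets, adjusted p = 0.977). The dimmer 1450082_s_at read 36.9, 12.2 and 17.2 at 16-20 somites, 29.5, 37.7 and 38.5 at 21-25 somites, and 49.2, 110.6 and 45.7 at 26-30 somites. Here the 3 latest arrays were wholly above both earlier stages. Taken singly, this held for 8.93% of all probe sets against 16-20 somites and 4.27% against 21-25 somites. The share above both stages was not counted. The difference between 26-30 and 16-20 somites was 0.94 ± 0.30, the smallest unadjusted p among the 20 probe sets (0.00971), and did not pass (adjusted p = 0.444). Over all 20, 1 probe set had an unadjusted p under 0.05 in that comparison, beside 9.26% of all probe sets. There was also 1 between 21-25 and 16-20 somites (Fgfr4 1427776_a_at, -0.71 ± 0.26, adjusted p = 0.500), beside 8.95%, there were 0 between 26-30 and 21-25 somites, beside 3.73%, and 1 (Etv5 1450082_s_at) in the F test, beside 7.8%. Between 21-25 and 16-20 somites 0 of the 20 were wholly apart, where 5.55% of all probe sets were higher and 6.95% lower at the later stage, and between 26-30 and 21-25 somites 0 were wholly lower, beside 4.84%.

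Outside the 10 genes, 56 of 97 listed FGF pathway genes passed the filter, in 5 lists, and 0 of them passed the test in any comparison of stages in limma. Between 26-30 and 16-20 somites 32 were above 0 and 24 below, with a median of 0.08, and 8 of 56 had an unadjusted p under 0.05 in limma, beside 11.1% of all tested genes. The later arrays were wholly higher for 7 of the 56 and wholly lower for 4, beside 11.2% and 10.2% of all tested genes. The highest list median was that of the enzymes that build and trim heparan sulfate, 0.23 with 8 of 10 positive, and the others lay between -0.01 (coreceptors and binding proteins, 5 of 11 positive) and 0.12 (adaptors and the RAS-ERK relay, 8 of 14 positive).

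**Figure D4:**
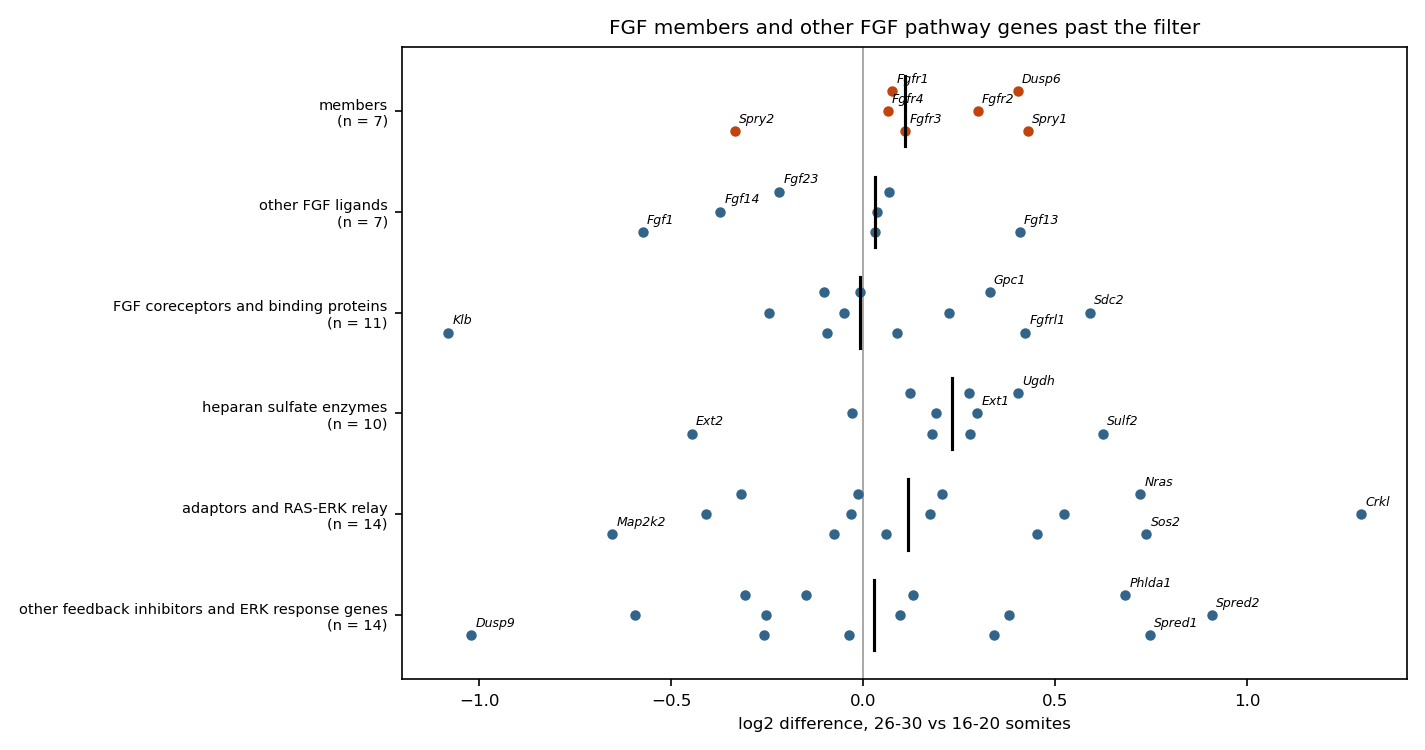
Log2 difference between 26-30 and 16-20 somites (horizontal axis) of each FGF member (orange) and other pathway gene (blue) past the filter, by list (rows, with the number of genes), with black bars for list medians. The members lie between -0.33 and 0.43, inside the range of the other lists, which reaches from -1.08 for Klb to 1.30 for Crkl.

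Of the other FGF ligands 14 of 21 lay below the filter level, among them Fgf8, and 7 were tested. Fgf1 had a signal of 98.9 ± 25.0 at 26-30 somites against 161 ± 40.9 at 16-20 somites (SD, n = 3 each), a difference of -0.57 ± 0.27, with -0.996 in its other probe set. Fgf13 (0.41 ± 0.26) and Fgf14 (-0.37 ± 0.27), both of the intracellular FGFs that do not act through receptors, and the endocrine Fgf23 (-0.22 ± 0.24) followed. The other probe set of Fgf14 had the opposite sign, 0.37 ± 0.20, and that of Fgf13 gave 0.92 ± 0.45. None of these 4 genes passed, with adjusted p from 0.450 to 0.753 in limma. Among the coreceptors, Klb, which pairs with receptors for endocrine FGFs and is known from liver, had 51.1 to 105.6 at 26-30 somites against 97.4, 661.3 and 115.0 at 16-20 somites. The single high value was on replicate 2, the array with the highest hepatic markers, and the difference of -1.08 ± 0.54 was -0.29 without it, and -0.27 in the other probe set. The heparan sulfate carrier Sdc2 had 565.2 to 732.4 at 26-30 somites against 401.5 to 437.4 at 16-20 somites (0.59 ± 0.24, adjusted p = 0.395), and its other probe sets gave 1.26 and 0.22. Fgfrl1, a receptor without a kinase domain, had a difference of 0.42 ± 0.29, which was 0.067 without 16-20 somites replicate 2, and the glypican Gpc1 one of 0.33 ± 0.31, which was -0.032 without 16-20 somites replicate 1.

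In the heparan sulfate list the sulfatase Sulf2 had 545.4 to 667.1 at 26-30 somites against 306.6 to 539.0 at 16-20 somites, a difference of 0.62 ± 0.46. Ugdh, which makes a sugar precursor of the chains, had 1907.2 to 2787.8 at 26-30 somites against 1739.6 to 1792.6 at 16-20 somites (0.40 ± 0.21). For both genes the later arrays were wholly above the earlier ones, as they were for 11.2% of all tested genes. The chain polymerases differed in sign, with 0.30 ± 0.29 for Ext1 and -0.45 ± 0.35 for Ext2. The 4 adjusted p lay between 0.479 and 0.704 in limma.

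The relay and the feedback genes held wide differences in both directions. The adaptor Crkl had 507.9 to 1040.7 at 26-30 somites against 137.5 to 402.5 at 16-20 somites, or 1.30 ± 0.41 (limma, adjusted p = 0.346), while its other probe sets gave 0.09, 0.12 and -0.38. Sos2, which loads RAS with nucleotide, differed by 0.74 ± 0.33, Nras by 0.72 ± 0.26 with 1.09 and -0.51 in its other probe sets, and the ERK kinase gene Map2k2 by -0.65 ± 0.32 with -0.28 in its other probe set. Dusp9, a relative of Dusp6 that also acts on ERK, had 559.1, 650.1 and 611.0 at 26-30 somites and 522.7, 483.1 and 774.6 at 21-25 somites, against 1037.8, 1753.9 and 1083.3 at 16-20 somites. All 6 later arrays were below the 3 earliest. Of all tested genes, 10.2% were wholly lower at 26-30 and 7.3% at 21-25 than at 16-20 somites. The share lower at both stages was not counted. The 3 Dusp9 probe sets gave -1.02 ± 0.26, -0.62 and -1.05 between 26-30 and 16-20 somites, with an adjusted p of 0.317 for the first in limma. Spred1 and Spred2, inhibitors related to the sprouty proteins, differed by 0.75 ± 0.32 and 0.91 ± 0.47, with 0.73 and -0.15 in the other Spred1 probe sets and -0.10 in the other Spred2 probe set. The response gene Phlda1 had 441.5 to 630.4 at 26-30 somites against 264.8 to 380.5 at 16-20 somites (0.68 ± 0.24, adjusted p = 0.363). In a fit with array weights, which gives arrays far from their stage mean less influence, 4 of these passed in limma: Dusp9 (-1.01, adjusted p = 0.0173), Phlda1 (0.89, adjusted p = 0.0214), Sos2 (0.90, adjusted p = 0.0405) and Nras (0.71, adjusted p = 0.0443). That fit called 731 of all 8675 genes, and 0 of the 7 members. Its largest weight, 3.38, was on 26-30 somites replicate 1, a narrow-range array. Replicate 2 of that stage, also narrow-range, had 1.34, and replicate 3 had 0.67. Sos2 and Phlda1 had their 3 highest values on the narrow-range arrays, and Dusp9 and Nras did not. The part of the signal range in these passes was not tested.

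As a description, the tested genes with the pattern most like that of 2 dim members were ranked by Pearson correlation of log2 signals over the 9 arrays, which share array effects. For Fgf10 they were Cep41 (0.94), Tmem42 (0.92), Tbc1d22a (0.92), Osmr (0.91) and Slc51a (0.90), with Spearman coefficients of 0.55 to 0.83. For Etv5 they were Cyp2c29, Cdk5r1, Ctnnal1, Psrc1 and Endod1 (0.92 to 0.94). The closest member to Fgf10 was Fgfr4, ranked 378 of 8675 (0.55), and the closest to Etv5 was Fgfr3, ranked 1385 (0.49), while Fgfr2 ranked 6998 with Fgf10 (-0.30). Fgf10 read 24.9 on 16-20 somites replicate 3 and 48.2 to 68.9 elsewhere, so its Pearson coefficients lean heavily on that array. Fgfr4 was also lowest there (159.3).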

How the data were processed

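RNA (100 ng) of each pool was amplified linearly to 10 to 15 µg and hybridised to 1 Affymetrix array, per the labels' protocols. Deposited values are linear intensity per probe set; MAS5 is the tool the submitters' processing notes name, with neither version nor scaling target. Trimmed means were 500.2 to 500.3 on every array, as after scaling. Of 22690 probe sets, 64 were controls, 691 had several gene symbols and 1555 none, and these were left out; 20351 of the 20380 others matched RefSeq, with 0 symbols changed.

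Values went to log2 after adding 26.1, their 20th percentile. A gene was its brightest probe set, and genes under the 30th percentile were left out, which left 8675 of 12393. Stage means of all 9 arrays were fitted with limma 3.58.1 in R 4.3.3 (lmFit, eBayes with trend, two-sided, Benjamini-Hochberg at 0.05), and all single-symbol probe sets again without filter. Tested on simulated data for 26-30 against 16-20 somites on 8675 genes, the step recovered 34.4% of log2 changes of 1, 69.3% of 1.5, 86.9% of 2 and 96.2% of 3. False calls averaged 7.05 per simulated set. The simulated noise was independent between genes, without the array effects that the real arrays share, so recovery in the real data may differ. Fold sizes are on the log2(signal + pseudocount) scale, which understates dim genes, and the number of arrays limits precision. Members and lists were chosen with earlier results of these data known. Named pathway genes were, per list, any that passed and the 4 widest differences between 26-30 and 16-20 somites, and for likeness the 5 highest correlations.

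Alternatives were quantile normalization, median centring, pseudocounts of 6.53 and 104, no filter or the 50th percentile, the replicate number as a block, eBayes without trend, array weights, averaging a gene's probe sets, only the 6 arrays compared, and leaving out each array; fits without the narrow-range arrays or with the 99th percentile of signal as covariate were added after seeing the data.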

Additional observations from a re-analysis of the deposited data

How the results depend on the processing

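The count of 0 members past the threshold held under all 22 alternatives (adjusted p at least 0.250), and that of 0 member probe sets under the 12 alternatives run for them (at least 0.303). Over all genes, array weights gave 731 calls between 26-30 and 16-20 somites, 29 between 26-30 and 21-25, 339 in the F test and 4 among the other pathway genes. Only the 6 arrays compared gave 4, the covariate 1, 1 in the first step (21-25 against 16-20) and 1 in the F test, and leaving out the narrow-range arrays 1 in the first step. Leaving out single arrays gave 0 to 1 for 26-30 against 16-20, 0 to 3 for 21-25 against 16-20 (3 without 21-25 somites replicate 3) and 0 to 2 in the F test (2 without the same array). The replicate block gave 0 calls in each comparison and changed no call. Same-numbered arrays of different stages correlated in their deviations from stage means at -0.28 to 0.26, over 0.1 in 3 of 9 pairs. Pairs with unlike numbers gave -0.52 to 0.43, over 0.1 in 5 of 18, so the numbers were not taken to pair the pools.

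Several uncalled differences changed sign, and the cause was not tested. The fit without the narrow-range arrays left 26-30 somites with replicate 3 alone. Without the narrow-range arrays, 26-30 against 16-20 gave -0.18 (Fgfr1), -1.09 (Fgfr3), -0.20 (Dusp6), -0.042 (Ext1), -0.078 (Spry4 1422020_at) and 0.043 (Etv5 1420998_at), 21-25 against 16-20 -0.31 (Fgfr3) and -0.12 (Spry1), and 26-30 against 21-25 0.30 (Fgfr2), -0.78 (Fgfr3) and 0.023 (Fgfr4). With the covariate, Fgfr1, Fgfr3, Dusp6 and Spry4 1422020_at gave -0.13, -0.46, -0.16 and -0.041 over the whole interval, and Fgfr3 -0.38 and -0.076 in the steps. With the mean of all probe sets, the whole interval gave -0.13 (Fgfr1) and -0.037 (Fgfr3), the first step -0.40 (Fgfr3), -0.0031 (Fgfr4) and 0.20 (Spry2), and the second 0.058 (Fgfr4). Array weights gave 0.031 for Fgfr4 in the second step, and 0.022 for Spry2 and 0.038 for Dusp6 in the first, and quantile normalization -0.021 for Fgfr3 in the second.

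Leaving out single arrays, values crossed 0 over the whole interval for Fgfr1 (-0.0039 to 0.20), Fgfr3 (-0.25 to 0.71), Gpc1 (-0.032 to 0.52), Fgf10 (-0.18 to 0.27), Spry4 1422020_at (-0.19 to 0.29) and Etv5 1420998_at (-0.35 to 0.26). In the first step they did for Fgfr3 (-0.31 to 0.43), Spry1 (-0.12 to 0.76), Spry2 (-0.20 to 0.20) and Dusp6 (-0.68 to 0.53), and in the second for Fgfr2 (-0.17 to 0.15), Fgfr3 (-0.31 to 0.65), Fgfr4 (-0.14 to 0.029), Spry1 (-0.33 to 0.55) and Dusp6 (-0.13 to 1.08).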
